A study of Homo sapiens with 4 samples.

Results

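Chromatin immunoprecipitation followed by sequencing (ChIP-seq) of ONECUT2 in 22Rv1 cells left many places that both replicates called as peaks outside the final reproducible list. The peaks described here are those of replicate 1 on chromosomes 1 to 22 that shared at least 1 bp with a replicate 2 peak and touched no region of the list made with an irreproducible discovery rate (IDR) procedure. There were 4066 of them, called absent peaks below, among 14431 peaks of replicate 1 in all. Stricter criteria gave 2362 (reciprocal overlap of 50% between replicates), 2188 (summits within 100 bp) and 1758 (−log10 q of at least 5 in both). They were compared with 3061 replicated peaks on the same chromosomes that overlapped the IDR list, called listed peaks. Absent peaks thus made up 57.1% of the 7127 replicated peaks (exact Clopper-Pearson 95% interval 55.9% to 58.2%), and 52.3%, 52.6% and 46.2% under these criteria, the last a minority. Because these intervals count each peak as 1 observation from the same libraries, they cover counting error only.

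22Rv1 is an established line of castration-resistant human prostate carcinoma. The series holds 4 libraries of this 1 line, with no treatment named: 2 from ChIP with a rabbit antibody to ONECUT2, and 2 from input DNA. Cells were fixed with 1% formaldehyde for 10 min and their chromatin was sonicated to 100 to 500 bp. Separate cultures are not mentioned for the ChIP replicates, and the spread between them may be technical.

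ONECUT2 binds DNA through a CUT domain and a homeodomain, and is known for roles in liver, pancreas and nervous system development. In prostate cancer it is known as a factor of the disease that has escaped androgen dependence. An IDR procedure ranks the candidate regions of each replicate and keeps those whose ranks are repeated, so presence in both lists and presence in the IDR list are different criteria. No hg19 genome or annotation was used here, so peaks are given by position and neither genes nor DNA sequences are assigned to them.

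Absent peaks were chosen by the peak calls of both replicates and by absence from the IDR list, which rest on the same ChIP signal. Width, enrichment, fragments and background are therefore given as a description, with no test. Replication and listing went together: 76.4% of the 6886 replicate 1 autosomal peaks without a replicate 2 peak were outside the IDR list, against 57.1% of replicated ones and 66.6% of all 14013.

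The absent peaks were as enriched as many listed peaks but rested on fewer ChIP fragments. Fold enrichment is the authors' ratio of ChIP signal at the summit to local background from input. Its median was 3.64 in absent and 4.02 in listed peaks of replicate 1, and 3.41 and 3.56 in their replicate 2 peaks. The median of absent over listed peaks was thus 0.903 in replicate 1 and 0.957 in replicate 2. The lower quartile did not separate the groups at all, at 3.10 in both groups in replicate 1 and at 2.78 in absent against 2.69 in listed peaks in replicate 2. The upper quartile did, at 4.28 against 6.43 in replicate 1 and 4.20 against 5.46 in replicate 2.

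The number of ChIP fragments over the summit, recovered from the authors' fold and p-values, differed more. Absent peaks had a median of 31 fragments in replicate 1 and 32 in replicate 2, against 53 and 49 in listed peaks. The middle part of the absent peaks, from the 25th to the 75th percentile, ran from 23 to 42 fragments in replicate 1 and from 25 to 41 in replicate 2. In listed peaks it ran from 38 to 80 and from 38 to 72, so these ranges met only at their edges. Background under the summit, in the same fragment unit, was also lower in absent peaks, with medians of 7.11 and 7.81 fragments against 12.9 and 14.0. The smallest background of the replicate 1 list, within 0.1%, lay under 1035 absent peaks (25.5%) and 217 listed peaks (7.09%). MACS2 sets this smallest value where local input is sparse. What the lower background contributed to absence from the IDR list was not tested.

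**Figure D1:**
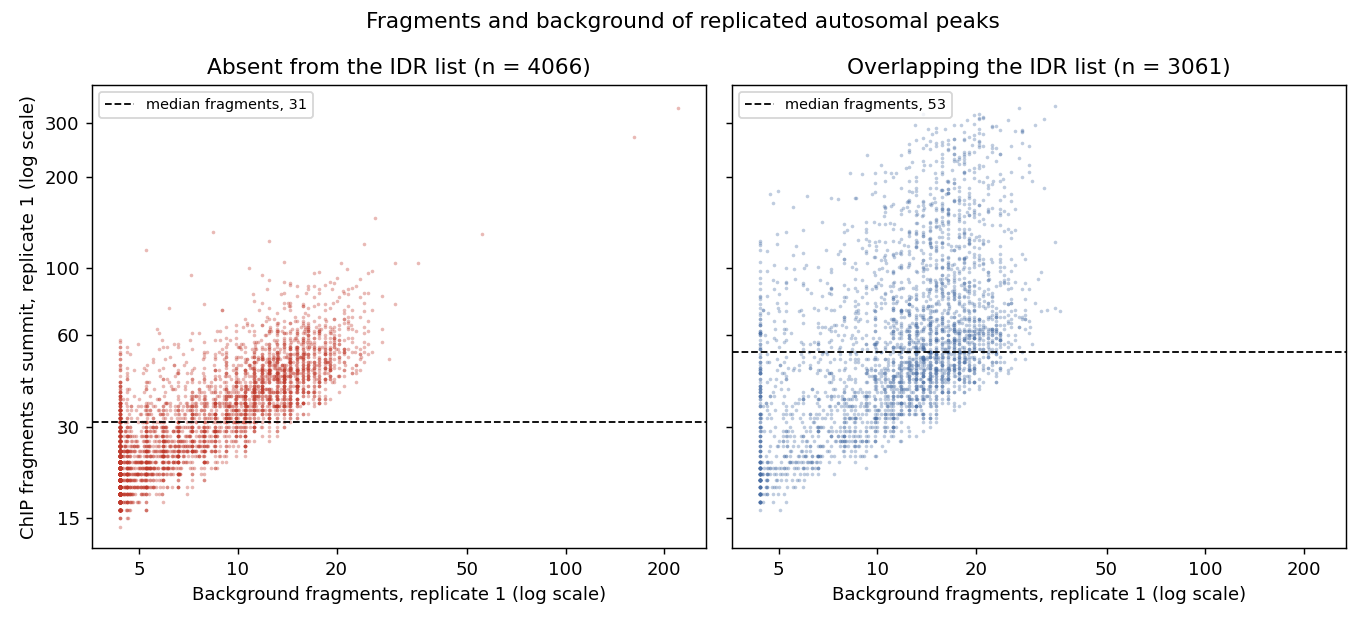
ChIP fragments at the summit against background fragments in replicate 1, both on log scales, for absent peaks (left) and listed peaks (right); each point is a peak and the dashed line is the median. Absent peaks lie lower and further left, with a median of 31 fragments against 53, and 2 absent peaks stand far to the right, at backgrounds of 162 and 220 fragments.

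Only a small part of the absent peaks reached the fragment numbers usual for listed ones. At or above the listed medians in both replicates stood 271 absent peaks (6.67%), against 1348 listed peaks (44.0%). For fold enrichment the same count gave 1049 absent peaks (25.8%) and 1282 listed peaks (41.9%). The groups thus overlapped more in fold enrichment than in fragments.

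Absent peaks were narrower. Their median width was 392.5 bp in replicate 1 and 347 bp in replicate 2, against 749 and 589 bp for listed peaks. Widths of at most 500 bp in both replicates, the upper end of the sonicated size, were found in 2086 absent peaks (51.3%) and 744 listed peaks (24.3%). The autosomal IDR regions were themselves wider, with medians of 1912.5, 1982, 1984 and 1382 bp from the lowest to the highest quartile of their signal. A wide peak has more chance to touch an IDR region, which can add to this difference. When the replicate 1 summit itself had to lie in an IDR region, the ratio of median widths was 0.518, against 0.524 with any overlap. That setting only moved the number of absent peaks from 4066 to 4122, so the ratio could hardly change. What width itself contributed to listing was not tested.

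The share of replicated peaks that was absent fell steeply along the fragment scale. In replicate 1 it was 84.3% (interval 82.6% to 85.9%) among the 1882 peaks with 14 to 26 fragments and 69.7% among the 1694 peaks with 27 to 38. It was 54.2% among the 1822 peaks with 39 to 55 fragments, and 17.9% (interval 16.1% to 19.8%) among the 1729 peaks with 56 to 342. Along width quartiles the share was 75.6%, 70.8%, 57.3% and 24.4% from narrowest to widest. Along background quartiles it was 79.9%, 64.7%, 49.2% and 34.3% from lowest to highest.

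Fold enrichment gave no such even slope. The share absent was 56.4% of 1551 peaks below a fold of 3, rose to 68.1% of 2637 peaks from 3 to 4 and was 63.1% of 1907 peaks from 4 to 6. Above that it dropped to 26.6% of 685 peaks from 6 to 10 and to 2.88% (10 of 347, interval 1.39% to 5.24%) at 10 or more. The least enriched replicated peaks were thus listed more often than those of the next class. Of these 1551 peaks, 840 lay in the highest background quartile, and within background quartiles the order did not hold throughout. Below 3 and from 3 to 4, the share absent was 73.9% and 74.3% in the second background quartile. In the third it was 63.4% and 58.7%, and in the highest 47.7% and 41.2%. The lowest held too few peaks below 3 for a share.

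**Figure D2:**
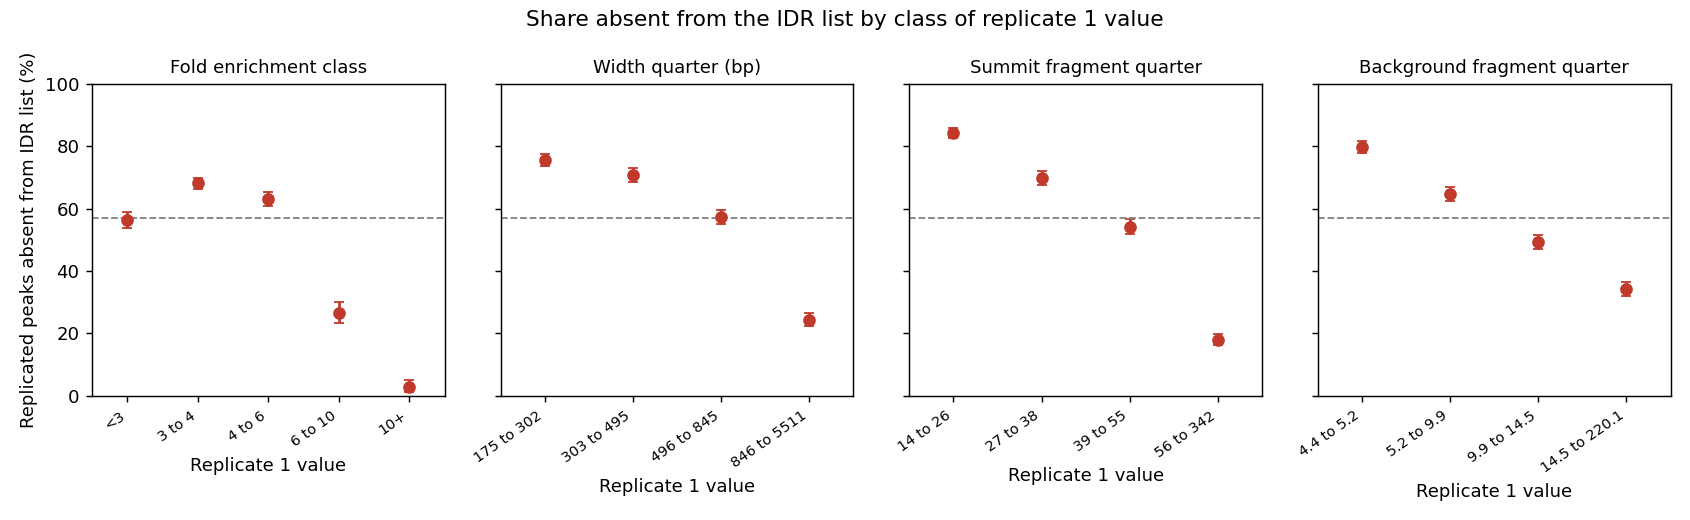
Percent of replicated autosomal peaks absent from the IDR list, by class of the replicate 1 value of fold enrichment, width (bp), summit fragments and background fragments; bars are exact 95% intervals and the dashed line is the 57.1% of all replicated peaks. The share falls in every step of width, fragments and background, but for fold enrichment it is highest from 3 to 4.

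Crossing the classes showed where fold enrichment and fragments parted. Among peaks with 14 to 26 fragments, the share absent was 80.4% of 168 below a fold of 3 and 86.9% of 609 from 4 to 6. Among those with 56 fragments or more, it was 27.0% of 178 below 3, 35.6% of 326 from 3 to 4, 6.81% of 411 from 6 to 10 and 1.77% of 339 at 10 or more. At a given fold from 6 to 10, the share changed with background. It was 57.6% of 205 peaks in the lowest background quartile (interval 50.5% to 64.4%), 32.1% of 165 in the second and 7.91% of 139 in the third. In the highest background quartile it was 0 of 176 peaks, whose interval reaches 2.07%. A peak of the same fold over a higher background holds more fragments by construction.

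Within a class of fragments the share changed less with width. Among peaks with 27 to 38 fragments, 69.4% of 496 in the narrowest width quartile were absent, 73.1% of 598 in the second, 69.2% of 439 in the third and 59.6% of 161 in the widest. Among peaks with 56 fragments or more the widths did differ, with no even slope: 2 of 22 were absent in the narrowest width quartile (9.09%, interval 1.12% to 29.2%), 39.2% of 130 in the second, 32.4% of 435 in the third and 10.2% of 1142 in the widest.

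Absent peaks were set next to listed peaks by the signal of the IDR region that these overlapped. The IDR signal is the authors' own value on a scale the list does not name. Listed peaks in the lowest signal quartile (134 to 162) had medians of 40 fragments in replicate 1 and 39 in replicate 2, above the 31 and 32 of absent peaks. Their median folds, 3.72 and 3.34, were close to the 3.64 and 3.41 of absent peaks, and their background was higher, at 9.82 and 10.2 fragments. In the highest signal quartile the listed peaks had 89.5 and 82 fragments and folds of 6.45 and 5.17. The IDR list was not filled from replicated peaks alone, since 390 of the 1066 autosomal regions in its lowest signal quartile (36.6%) held one, against 974 of 1065 (91.5%) in the highest.

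Strongly enriched absent peaks were few. A fold enrichment of 6 or more in both replicates was reached by 98 absent peaks (2.41% of them), 601 listed peaks (19.6%) and 9.81% of all replicated peaks, so that 14.0% of the 699 such peaks were absent. These 98 lay on 19 chromosomes, with 14 on chromosome 1, 9 on chromosome 5 and none on chromosomes 14, 21 and 22. Their median folds were 7.33 and 7.49, against 10.4 and 8.68 in the 601. They had 42 and 47 fragments over backgrounds of 4.37 and 4.87, against 125 and 113 fragments over 10.7 and 11.9. The smallest background lay under 54 of the 98 (55.1%) and under 83 of the 601 (13.8%). Of the 98, 61 lay at least 100 kb from the nearest IDR region (62.2%), against 52.0% of all absent peaks, and 10 lay within 10 kb (10.2%), against 15.2%.

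A fold enrichment of 10 or more in both replicates was reached by 4 absent peaks, 0.0984% of them, against 2.85% of all replicated peaks and 6.50% of listed ones. They were 1.97% of the 203 replicated peaks past this fold. The first lay on chromosome 1 from 148241317 to 148241784, with a fold of 18.5 in replicate 1 and 11.6 in replicate 2 (15.1 ± 4.91, SD, n = 2). It had 115 fragments in replicate 1 and 87 in replicate 2 over backgrounds of 5.26 and 6.59. It had the highest replicate 1 fold of all absent peaks, and the replicates differed more there than at the other 3. The long arm of chromosome 1 near its centromere, where this peak lies, is known for large duplicated segments. The nearest IDR region was 434 kb away.

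The second lay on chromosome 11 from 518491 to 519384, with folds of 14.1 and 11.4 (12.7 ± 1.87, SD, n = 2). Its 131 and 117 fragments were well above the listed medians of 53 and 49. The third, on chromosome 18 from 52434229 to 52435342, had folds of 10.8 and 11.2 (11.0 ± 0.316, SD, n = 2) from 57 and 65 fragments over the smallest background. The fourth, on chromosome 2 from 102182891 to 102183869, had folds of 10.4 and 10.7 (10.6 ± 0.218, SD, n = 2) from 55 and 62 fragments, also over the smallest background. At the last 2 sites the folds of the replicates differed little. Their fragments were near the listed median of 53 in replicate 1 and above that of 49 in replicate 2. The 4 summits of replicate 1 lay within 42 bp of those of replicate 2.

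The 12 absent peaks of highest mean fold included these 4 and another 5 with a fold of at least 8 in each replicate. On chromosome 1, the peak from 184771041 to 184772796 had folds of 9.61 and 12.01, with 63 and 87 fragments, and lay 12.1 kb from an IDR region. A further peak on chromosome 2, from 85743315 to 85744557, had folds of 11.7 and 9.35, with 95 and 83 fragments. On chromosome 5, the peak from 92281558 to 92282690 had folds of 11.0 and 9.71 with the summit at the same base in both replicates, and the peak from 127003197 to 127004469 had folds of 9.86 and 10.0. On chromosome 20, the peak from 1363822 to 1365519 had folds of 8.001 and 11.4 and lay 717 kb from the nearest IDR region. All 5 were wider than most absent peaks, at 1113 to 1934 bp over both replicates.

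The other 3 of these 12 had a high mean through replicate 2 alone. On chromosome 8, a peak of 292 bp from 29414022 to 29414313 had a fold of 3.72 in replicate 1, while the replicate 2 peak over it was 1795 bp wide with a fold of 22.1. On chromosome 13, a peak of 204 bp from 20772557 to 20772760 had 3.72 against 16.9. On chromosome 10, a peak of 177 bp from 79926595 to 79926771 had 3.31 against 16.8. In each the replicate 2 summit lay 986 to 1175 bp away and the replicate 2 peak overlapped an IDR region. In these 3 the replicate 1 call was narrow and lay at or near an end of a wide replicate 2 peak that the IDR list does hold.

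Few absent peaks had a replicate 2 peak in the IDR list, whatever its width. The paired replicate 2 peak overlapped the IDR list in 62 of 4066 (1.52%, interval 1.17% to 1.95%) and was itself absent in 4004. In the 62, widths of the replicate 2 peak ran from 181 to 7266 bp. Median width was 247.5 bp in replicate 1 and 1680.5 bp in replicate 2, median fold 3.52 and 6.98, and median fragments 24 and 79. At the median they had fewer fragments than the other absent peaks in replicate 1 and more in replicate 2. Without them the median folds of absent peaks were 3.64 and 3.41 and the median fragments 31 and 32, as with them.

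**Figure D3:**
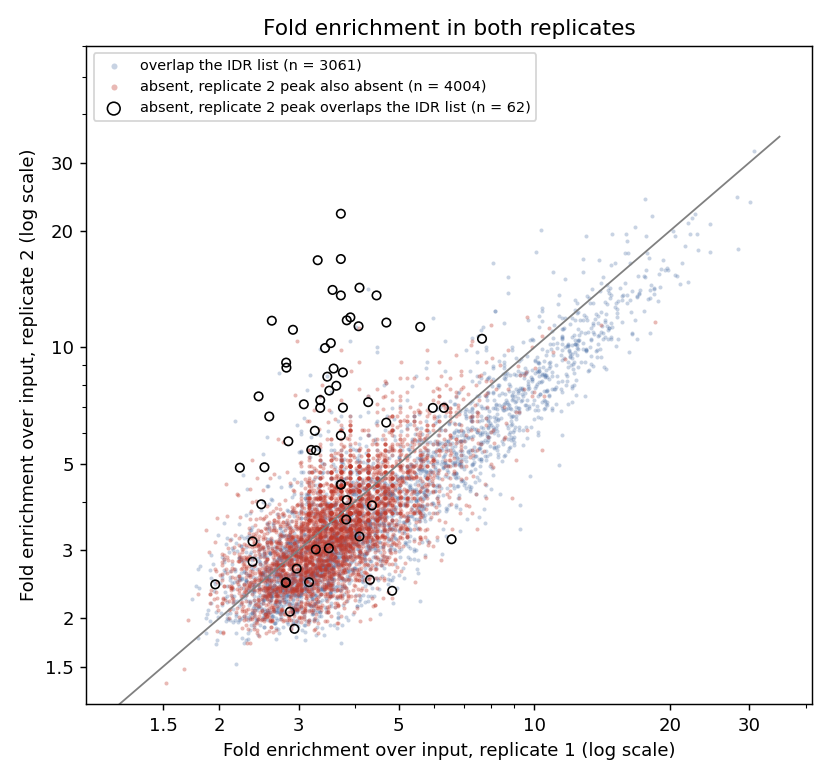
Fold enrichment over input in replicate 2 against replicate 1, on log scales, for listed peaks (blue), absent peaks whose replicate 2 peak was also absent (red) and the 62 absent peaks whose replicate 2 peak overlapped the IDR list (open circles); the line marks equal values. Red points fill the low end and thin out above a fold of 10 in both replicates, where 4 absent peaks lie, and many open circles lie well above the line.

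The absent peaks with most fragments were of 2 sorts. A pair on chromosome 6, from 58778117 to 58779304 and from 58777684 to 58778029, lies beside the centromere, a part of the genome known for satellite repeats. The first had 336 fragments in replicate 1 and 335 in replicate 2 over backgrounds of 220 and 245, so its fold was 1.52 and 1.36 (1.44 ± 0.113, SD, n = 2). The second had 271 and 272 fragments over 162 and 184, with folds of 1.67 and 1.48 (1.58 ± 0.137, SD, n = 2). These were the highest backgrounds among the absent peaks, and their folds were below the 10th percentile of absent peaks, 2.61 in replicate 1 and 2.38 in replicate 2. The remaining 3 of the 5 lay on chromosomes 7, 9 and 19 and had a replicate 2 peak in the IDR list, with 37, 22 and 35 fragments in replicate 1 against 287, 276 and 281 in the replicate 2 peak, which was 2089 to 4453 bp wide.

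By mean width, the 5 widest also had a replicate 2 peak in the IDR list. On chromosome 22, a replicate 2 peak of 7266 bp covered 2 absent replicate 1 peaks, of 1060 bp from 31369352 to 31370411 and of 175 bp from 31370627 to 31370801. Their folds were 5.95 and 3.35 in replicate 1, against 6.98 for the shared replicate 2 peak. The others lay on chromosomes 12 and 13, with replicate 2 peaks of 4539 to 5192 bp. In all, the 4066 absent peaks were paired with 3852 different replicate 2 peaks, and 462 shared theirs with another replicate 1 peak.

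Where absent peaks stood relative to the IDR list was measured next. The median distance to the nearest IDR region was 112 kb, and 2116 (52.0%) lay at least 100 kb away. Another 1331 (32.7%) lay 10 to 100 kb away and 365 (8.98%) lay 1 to 10 kb away. Within 1 kb lay 254 (6.25%, interval 5.52% to 7.04%), of which 59 had a replicate 2 peak in the IDR list. Median fold hardly moved over these distances, from 3.40 within 1 kb to 3.70 at 100 kb or more in replicate 1 and from 3.26 to 3.48 in replicate 2. Median fragments in these classes were 29 and 30 in replicate 1, but 35 and 31 in replicate 2.

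**Figure D4:**
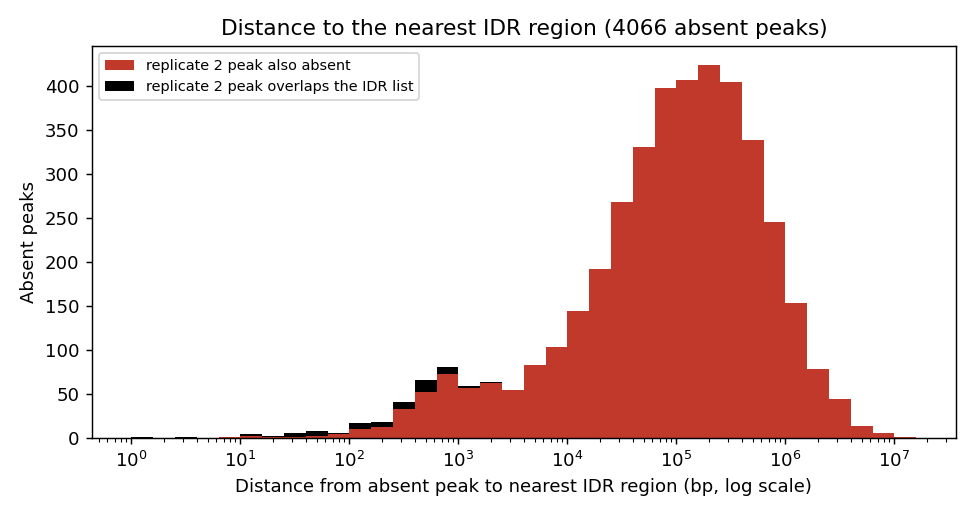
Number of absent peaks by distance in bp to the nearest IDR region, on a log scale, stacked by whether the paired replicate 2 peak was also absent (red) or overlapped the IDR list (black). Most lie beyond 10 kb, with a median of 112 kb, and nearly all black counts lie below 1 kb.

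The 4 peaks nearest to the overlap threshold on each side had folds of overlapping range. The 4 absent peaks closest to an IDR region stood 1, 3, 8 and 10 bp from it. They lay on chromosome 12 from 42875379 to 42875674, chromosome 1 from 249199744 to 249200061, chromosome 17 from 6949961 to 6950135 and chromosome 12 from 46885954 to 46886139. Their folds in replicate 1 were 3.76, 2.37, 2.22 and 3.50, and in replicate 2 they were 6.99, 2.80, 3.64 and 3.03. The 4 listed peaks of smallest overlap shared 5, 14, 17 and 17 bp with an IDR region, on chromosome 12 (12716303 to 12716622 and 98909751 to 98910437), chromosome 5 (148397615 to 148397940) and chromosome 17 (80250467 to 80251027). Their folds were 3.78, 2.73, 4.47 and 4.06 in replicate 1 and 3.46, 2.20, 10.0 and 3.02 in replicate 2. In replicate 1 the folds thus ran from 2.22 to 3.76 on the absent side and from 2.73 to 4.47 on the listed side. In replicate 2 they ran from 2.80 to 6.99 and from 2.20 to 10.0. The folds of 6.99 and 10.0 belong to replicate 2 peaks with summits 561 and 933 bp from those of replicate 1.

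Distance to other peaks was also measured, for absent and listed peaks but not for unreplicated ones. Another replicate 1 peak lay within 1 kb of 1684 absent peaks (41.4%) and of 1570 listed peaks (51.3%). The median distance to it was 5.55 kb for absent and 0.805 kb for listed peaks. Another absent peak lay within 1 kb of 1007 of them (24.8%).

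Placement of the summit was less tight in absent peaks. The median distance between the summits of both replicates was 91 bp, against 60 bp in listed peaks, and summits lay within 100 bp of each other in 53.8% and 64.4%. The median log2 ratio of fold, replicate 2 over replicate 1, was -0.09 (SD 0.37) in absent and -0.23 (SD 0.35) in listed peaks. For fragments it was 0.00 (SD 0.38) and -0.11 (SD 0.34). Fold values of the replicates share their input denominator. At 43 of the 43 replicated pairs with the same summit base and a background above the smallest, the backgrounds stood in the ratio 1.11 of the smallest values, within 0.1%. The SDs of the log2 ratios were alike in both groups, but ranks were repeated less well in absent peaks. The rank correlation between replicates was 0.645 for fold in absent and 0.837 in listed peaks, and 0.799 and 0.901 for fragments. Listed peaks also spanned a wider range of fold and of fragments, and what that range contributed was not tested.

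Absent peaks occurred on each of the 22 autosomes, at shares of the replicated peaks from 46.5% to 63.1%. Chromosome 17 had the lowest share, with 140 of 301 (46.5%, interval 40.8% to 52.3%), and chromosome 20 the highest, with 82 of 130 (63.1%, interval 54.2% to 71.4%). Chromosome 3 followed with 247 of 394 (62.7%, interval 57.7% to 67.5%), then chromosome 6 with 280 of 452 (61.9%) and chromosome 5 with 235 of 380 (61.8%). Intervals below the 57.1% of all autosomes were those of chromosome 17, chromosome 1 (53.2% of 870, interval 49.8% to 56.6%) and chromosome 7 (53.0% of 615, interval 49.0% to 57.0%). Those of chromosomes 3 and 6 (interval 57.3% to 66.4%) lay above it, and those of the other 17 autosomes, chromosome 20 among them, included it. Chromosome 19, the most gene-dense human chromosome, had 203 of 377 (53.8%, interval 48.7% to 59.0%). The long arm of chromosome 1 and chromosomes 7 and 12, which have many peaks in both lists, together had 965 of 1783 (54.1%, interval 51.8% to 56.5%), against 58.0% of 5344 on the other autosomes. No test of a difference between chromosomes was made, since listing and these counts come from the same calls. The intervals of the 22 autosomes were not adjusted for their number and cover counting error only. Each chromosome is also part of the 57.1%.

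Shares were also taken within classes of fragments. Among replicated peaks with more than 38 fragments, the median of all replicated peaks, 36.4% of 195 were absent on chromosome 17, near the 36.6% of 3551 on all autosomes. Among those with up to 38 fragments it had 65.1% of 106 absent, against 77.4% of 3576. Chromosome 7 had the lowest share above 38 fragments, at 26.4% of 288, and chromosome 20 the highest, at 51.4% of 72. Up to 38 fragments these chromosomes had 76.5% and 77.6%, near that of all autosomes. Chromosome 7 had the lowest median fragments of absent peaks, 25, and chromosome 20 had 36.5. Of all replicated peaks, 195 of 301 on chromosome 17 and 482 of 870 on chromosome 1 had more than 38 fragments. On chromosomes 3 and 6, whose shares absent were high, 170 of 394 and 178 of 452 did, against 3551 of 7127 on all autosomes. Chromosome 7, whose share absent was low, had 288 of 615. The part of fragment number in the differences between chromosomes was not tested.

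**Figure D5:**
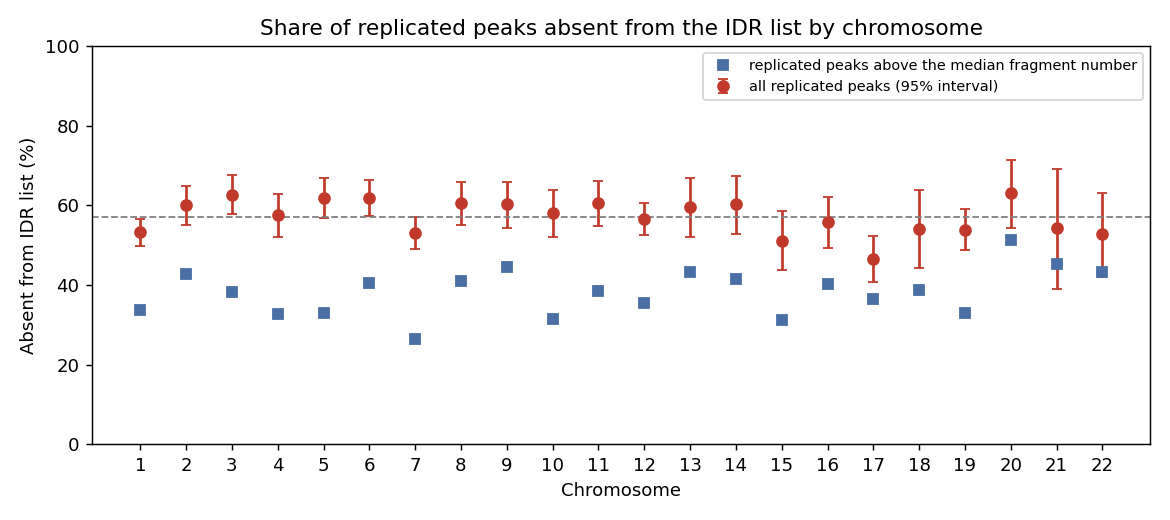
Percent of replicated peaks absent from the IDR list on each autosome, for all replicated peaks (red, with exact 95% intervals) and for those with more than 38 fragments in replicate 1 (blue); the dashed line is the 57.1% of all replicated peaks. Red points run from 46.5% on chromosome 17 to 63.1% on chromosome 20, and every blue point lies below its red one.

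Absent peaks were also counted in windows of 1 Mb. They fell in 1607 windows, of which 623 held 1 and 26 held 10 or more, and those 26 held 340 absent peaks. Listed peaks were not counted in this way. Whether such gathering is particular to absent peaks was therefore not tested. The window with most, 23 absent of 29 replicated peaks (79.3%), was on chromosome 6 from 27 to 28 Mb. The window before it, from 26 to 27 Mb, had 21 of 33 (63.6%), against 57.1% of all replicated peaks. Both windows of this stretch also held IDR regions, 7 in the first and 11 in the second. This stretch is known for the large cluster of histone genes and for many transfer RNA genes. Folds there ran from 2.30 to 5.95 in replicate 1 and from 2.60 to 6.53 in replicate 2 in the first window, and from 2.99 to 6.18 and from 2.25 to 5.42 in the second. Median fragments were 24 and 28 in the first and 27 and 29 in the second, below the 31 and 32 of all absent peaks.

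The third window by count was on chromosome 12 from 71 to 72 Mb, with 18 absent of 23 replicated peaks (78.3%) and 5 IDR regions. Its absent peaks had a median fold of 4.28 in replicate 1 and 4.48 in replicate 2, on 23 and 27.5 fragments over the smallest background of each list. A window with as many, on chromosome 12 from 102 to 103 Mb, had 18 of 20. Every window with 10 or more absent peaks also held at least 1 IDR region.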

How the data were processed

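Per the submitters' processing notes, BWA 0.7.13-r1126, Picard, MACS2 2.1.1 and hg19 were used, with no role given. Per the file headers, the replicate lists hold MACS2 peaks and the third the optimal set of an IDR procedure, whose caller and input lists are not given in the sources used here. Fold enrichment, as deposited, is a ratio to input background. The −log10 p and −log10 q values, also as deposited, were at least 1.32 for q. The IDR signal is a deposited score of unnamed scale. Positions are hg19, counted from 1.

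Peaks of replicate 1 were paired with the overlapping replicate 2 peak of nearest summit. Fragments n and background b were solved from fold = (n + 1)/(b + 1) and the Poisson upper tail. A whole n matched −log10 p within 0.001 in 100% of 14431 and 11990 peaks, with medians of 34 and 30. Tested on simulated data, the step returned the right number in 100% of 14431 and 11990 peaks, and the overlap step found 445 of 445 planted overlaps. Tools were Python 3.11.15, numpy 2.4.6, pandas 2.3.3 and scipy 1.17.1. Quartile classes were cut over all replicated autosomal peaks. The number of reads per library is not given in the sources used here.

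Named were the 12 absent peaks of highest mean fold, the 5 with most fragments, the 5 widest, 4 on either side of the overlap threshold and the 3 windows of 1 Mb with most. The 4 peaks with a fold of at least 10 in both replicates are among the 12; the chromosome 12 window from 102 to 103 Mb, the chromosomes singled out and the classes crossed were chosen after their values were seen. Members, rules and alternatives were chosen with earlier results of these data known.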

Additional observations from a re-analysis of the deposited data

Results flagged for a closer look

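Places outside chromosomes 1 to 22 were not part of the comparison and held replicated peaks too. On unplaced and random contigs all 132 replicated peaks were absent from the IDR list. That share was fixed in advance, since the list holds no contig region. Their median fold was 3.68, with 32 fragments over a background of 7.94. On chromosome X, 64 of 90 replicated peaks (71.1%, interval 60.6% to 80.2%) were absent, with a median fold of 4.47 and 26.5 fragments. On mitochondrial DNA the share went the other way, with 1 of 16 absent (6.25%, interval 0.158% to 30.2%). The first 2 counts were noted because they come from data the comparison left out.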

How the results depend on the processing

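Of 66 alternative values, 33 stayed within the counting interval, replicate spread or 1.5 times of their result and 33 did not. Replicate 2 values of the same pairs fell outside for every ratio, and the spread rests on these same replicates. Small shifts of the background ratio, from 0.552 to 0.544 or 0.562, also fell outside. The count of 33 is therefore no measure of robustness. No ratio of medians crossed 1, the share absent fell below 50% in 1 setting, and causes were not tested. Reciprocal overlap of 50% left 2362 absent peaks, summits within 100 bp 2188 and −log10 q of at least 5 in both replicates 1758, from 4066. The share absent (57.1%) became 52.3%, 52.6% and 46.2% in these settings and 53.5% when peaks within 1 kb of an IDR region counted as listed. On chromosome 19 (53.8%) it became 47.7%, 46.1% and 43.1%. On 1q, 7 and 12 (54.1%) it became 50.5% with reciprocal overlap, 43.6% with the q limit and 50.1% with the 1 kb margin. The ratio of median fold, absent over listed (0.903), was 0.776 with reciprocal overlap, 0.780 with near summits, 0.815 with the q limit, 0.982 for peaks of replicate 2 and 0.957 for replicate 2 values of the same pairs. The width ratio (0.524) was 0.463 with reciprocal overlap, 0.463 with near summits, 0.632 for replicate 2 peaks and 0.589 for replicate 2 values. The fragment ratio (0.585) was 0.524 with near summits, 0.530 with the q limit, 0.681 and 0.653. The background ratio (0.552) was 0.566, 0.587, 0.510, 0.579 and 0.560 in the settings listed for fold, 0.544 with summits inside IDR regions and 0.562 with the 1 kb margin. Dropping the 62 peaks whose replicate 2 peak overlapped the IDR list, a setting added after the data were seen, moved no value beyond its spread. No paired analysis was possible because the inputs have no values of their own in the lists. Leaving out a replicate would leave no members, since the rule needs both. Gene starts and recognition sequences were not run without hg19.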
